A study of Mus musculus with 12 samples.

Results

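Podocalyxin and 9 genes of the apical-basal polarity machinery were followed in a cultured kidney epithelium. The genes were Podxl, the Crumbs genes Crb2, Crb3 and Patj, the PAR genes Pard3, Pard6b and Prkci, and the Scribble genes Scrib, Dlg1 and Llgl2. They were taken by symbol from the gene table, which gave 10 of 45777 genes, each with 1 row.

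The cells were mpkCCDc11, murine cells derived from cortical collecting duct and labelled wild type, which were starved of serum and hormones on permeable filters before treatment. The series addressed how TAZ, a coactivator of the Hippo pathway encoded by Wwtr1, acts on the vasopressin-regulated water channel aquaporin-2. The 4 groups of 3 libraries each were TAZ siRNA with dDAVP, TAZ siRNA with vehicle, control siRNA with dDAVP and control siRNA with vehicle. dDAVP, a synthetic agonist of the vasopressin V2 receptor, was given at 1e-09 M on the basolateral side. The labels list several exposure times and do not say which of them these libraries had. All groups come from 1 cell line in culture, and the labels do not say whether libraries of a group were separate cultures, so p-values measure only how far these libraries spread, and that spread may be technical.

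Epithelial cells keep an apical surface facing the lumen and a basolateral surface facing the tissue. Crumbs and PAR complexes act at the apical side and around the tight junction, the Scribble complex acts at the lateral membrane, and the atypical protein kinase C of the PAR complex phosphorylates Lgl proteins and so keeps them off the apical membrane. Podocalyxin, a heavily sialylated and negatively charged mucin, is best known from the foot processes of glomerular podocytes and from its arrival at the apical surface while a lumen forms. In principal cells of the collecting duct, vasopressin moves aquaporin-2 to the apical membrane.

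Podocalyxin and the Crumbs proteins end in a short motif that binds PDZ domains, which tethers podocalyxin to NHERF scaffolds and Crumbs proteins to PALS1. The coding ends of the 3 transmembrane genes are shown because they are the shared feature through which these proteins join the scaffolds described later. Each line gives the last 48 coding bases, 5′ to 3′, with the last 4 codons before the stop in capitals. They were read from GENCODE M21 transcripts on GRCm38, at chr6:31523022-31523069 on the minus strand for Podxl, chr2:37796625-37796672 on the plus strand for Crb2 and chr17:57065249-57065296 on the plus strand for Crb3.
Podxl: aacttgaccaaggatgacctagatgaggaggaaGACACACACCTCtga
Crb2: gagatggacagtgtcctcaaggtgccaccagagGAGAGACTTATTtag
Crb3: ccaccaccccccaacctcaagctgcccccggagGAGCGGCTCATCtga
The coding sequences were 503 codons long for Podxl, 1282 for Crb2 and 113 for Crb3, without the stop. The Crb3 line belongs to the transcripts NM_177638 and NM_001359813. The coding end of a further Crb3 transcript, NM_001347408, was not in the sources used. Group means of its share of Crb3 transcript counts lay between 20.2% and 22.2%.

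The libraries held between 45095331 and 61725339 counts. Wwtr1, the target of the siRNA, measured 108, 127 and 109 CPM (counts scaled to the library total) in TAZ siRNA libraries with dDAVP and 119, 114 and 116 CPM in those with vehicle, against 174, 161 and 164 CPM in control siRNA libraries with dDAVP and 179, 186 and 177 CPM in those with vehicle. The 6 TAZ siRNA libraries all lay below the 6 control siRNA libraries, with a log2 fold change of -0.54 ± 0.05 (SE) under dDAVP and -0.63 ± 0.05 under vehicle (edgeR quasi-likelihood test, Benjamini-Hochberg adjusted p = 5.54e-06 and 4e-06, n = 3 libraries per group). Aqp2 averaged 11.0 ± 2.4 CPM with TAZ siRNA and dDAVP and 0.048 ± 0.084 CPM with TAZ siRNA and vehicle, 34.7 ± 8.8 CPM with control siRNA and dDAVP and 0.34 ± 0.003 CPM with control siRNA and vehicle (SD, n = 3). All 9 listed principal cell markers passed the filter on low counts. Passing does not need counts in every group, and Aqp2 had 9, 0 and 0 counts with TAZ siRNA and vehicle. Of the 4 listed intercalated cell genes only 1, Atp6v1b1, passed, and the list summed to between 80.7 and 104.8 CPM over the 12 libraries. The epithelial markers Cdh1, Epcam, Krt8 and Krt18 summed to 3403 to 3551 CPM with TAZ siRNA and dDAVP and 3019 to 3243 CPM with TAZ siRNA and vehicle, 3662 to 3834 CPM with control siRNA and dDAVP and 2995 to 3125 CPM with control siRNA and vehicle, so that dDAVP libraries lay above vehicle libraries. The 4 listed proximal tubule genes, of which Lrp2 held nearly all, summed to 125 to 136 CPM with TAZ siRNA and dDAVP and 139 to 154 CPM with TAZ siRNA and vehicle, 153 to 169 CPM with control siRNA and dDAVP and 180.4 to 189.7 CPM with control siRNA and vehicle. The part of these shifts in the results was not tested.

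Podocalyxin, Crb2 and Prkci were lower with dDAVP under both siRNAs, and Llgl2 was higher under both. With dDAVP in TAZ siRNA cells, 1 of the 10 genes rose and 3 fell, where 10.8% of the 15932 genes tested were called in either direction (6.38% higher and 4.41% lower). With dDAVP in control siRNA cells, 2 rose and 3 fell, where 19.2% of tested genes were called (9.72% higher and 9.48% lower). TAZ siRNA raised 2 of the 10 and lowered none in dDAVP-treated cells, where 10.7% of tested genes were called (5.77% higher and 4.97% lower). It raised 3 and lowered none in vehicle-treated cells, where 6.30% were called (3.19% higher and 3.11% lower). A call is an edgeR quasi-likelihood test with a Benjamini-Hochberg adjusted p under 0.05 over all tested genes, and all 10 genes passed the filter on low counts. The median log2 fold change of the 10 genes was -0.0046, -0.024, 0.034 and -0.00026 in these 4 comparisons, beside -0.00085, -0.0012, 0.0025 and 0.0017 over all tested genes. The median size of the change was 0.076, 0.086, 0.074 and 0.083 for the 10 genes, beside 0.098, 0.11, 0.099 and 0.085 for all genes. Each group enters 2 of these comparisons, so they share libraries. In bulk RNA, fewer cells that express a gene and less RNA per cell cannot be told apart.

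**Figure D1:**
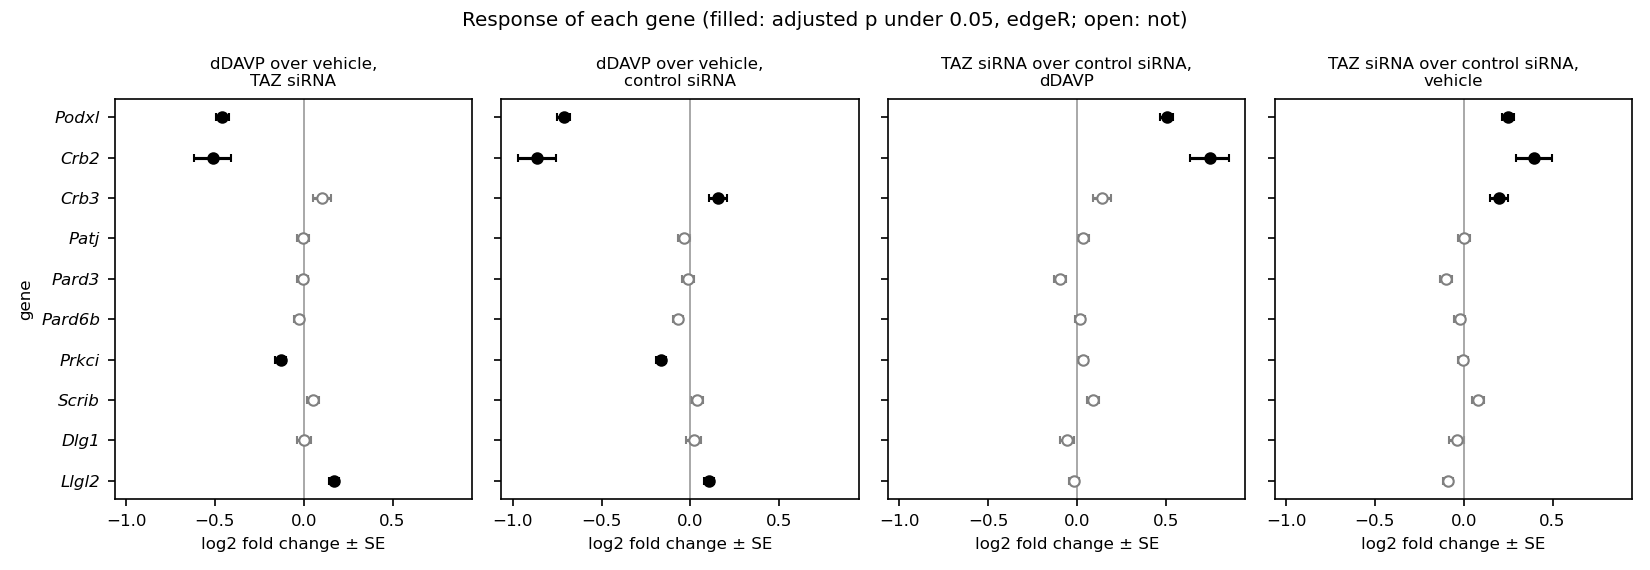
Log2 fold change (horizontal axis, ± SE from edgeR, n = 3 libraries per group) of the 10 genes in the 4 comparisons, with filled points for an adjusted p under 0.05. Podxl and Crb2 lie left of 0 in both dDAVP panels and right of 0 in both TAZ siRNA panels, while Patj, Pard3, Pard6b, Scrib and Dlg1 have open points in every panel.

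Podocalyxin was the 1 gene of the 10 whose 4 groups did not overlap at all, which held for 1.59% of all tested genes (254 of 15932). Podxl (gene identifier 27205, chr6:31519493-31563937 in the mm10 coordinates of the deposited transcript table, 1 transcript) measured 79.8, 80.3 and 81.4 CPM in TAZ siRNA libraries with dDAVP and 109, 110.5 and 112 CPM in TAZ siRNA libraries with vehicle. It measured 56.7, 54.2 and 59.4 CPM in control siRNA libraries with dDAVP and 91.4, 94.96 and 93.1 CPM in control siRNA libraries with vehicle. The order ran from TAZ siRNA with vehicle at the top through control siRNA with vehicle and TAZ siRNA with dDAVP to control siRNA with dDAVP. With dDAVP, Podxl fell to 72.8% of its vehicle mean in TAZ siRNA cells and to 61.0% in control siRNA cells. The log2 fold changes were -0.46 ± 0.03 with TAZ siRNA (adjusted p = 6.09e-08) and -0.71 ± 0.04 with control siRNA (adjusted p = 1.52e-10). TAZ siRNA raised Podxl by 0.50 ± 0.04 in dDAVP-treated cells (adjusted p = 4.84e-07) and by 0.25 ± 0.03 in vehicle-treated cells (adjusted p = 0.000434). All of these calls held under the 14 alternatives tried for each.

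The fall of Podxl with dDAVP was 0.26 ± 0.05 smaller on the log2 scale in TAZ siRNA cells than in control siRNA cells (95% interval 0.15 to 0.36). The test of this difference had an unadjusted p of 7.63e-05 and missed the threshold after Benjamini-Hochberg adjustment over all genes in edgeR (adjusted p = 0.0645). DESeq2 called it (adjusted p = 0.00101), and over all 19 alternatives the adjusted p ran from 0.00101 to 0.218. By edgeR 0 of the 10 genes were called for this difference, 2 of them had an unadjusted p under 0.05, and limma-voom called 0. Over all tested genes 0.0314% were called (0.0126% higher and 0.0188% lower), which is 5 genes, and 1295 genes had an unadjusted p under 0.05. The second gene with an unadjusted p under 0.05 was Crb2, at 0.35 ± 0.15 (adjusted p = 0.558, 95% interval 0.036 to 0.66).

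Podxl is a known podocyte product, and 4 of the 7 listed podocyte genes were at 0 in all libraries. Among them, Nphs1, which encodes the slit diaphragm protein nephrin, and the podocyte transcription factor genes Wt1 and Tcf21 had no count in any of the 12 libraries, where a count of 3 would be 0.0486 to 0.0665 CPM. Synpo and Kirrel of this list passed the filter. The summed level of the list was 316 to 343 CPM with TAZ siRNA and dDAVP and 279 to 297 CPM with TAZ siRNA and vehicle, 310.0 to 316 CPM with control siRNA and dDAVP and 278 to 295 CPM with control siRNA and vehicle. Synpo, which encodes the actin-binding protein synaptopodin, moved opposite to Podxl with dDAVP, at a log2 fold change of 1.24 ± 0.05 in TAZ siRNA cells and 1.34 ± 0.05 in control siRNA cells (adjusted p = 1.15e-11 and 2.51e-12). Kirrel, which encodes the slit diaphragm protein NEPH1, fell by 0.18 ± 0.04 and by 0.31 ± 0.04 in those cells (adjusted p = 0.00293 and 6.78e-06).

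Endothelial cells and some blood cells also make podocalyxin. Of the 7 listed endothelial genes 2 were at 0 in all libraries, Kdr among them, while Pecam1 and Egfl7 passed the filter. The endothelial list summed to between 6.64 and 9.83 CPM over the 12 libraries. The 5 listed immune genes summed to 39.4 to 41.6 CPM with TAZ siRNA and dDAVP, 43.0 to 47.3 CPM with TAZ siRNA and vehicle, 29.6 to 33.3 CPM with control siRNA and dDAVP and 40.4 to 44.2 CPM with control siRNA and vehicle. This sum was lowest in control siRNA cells with dDAVP, as was Podxl, and it was nearly all Csf1r. Cd3e was at 0 in all libraries, and Ptprc, which encodes the leukocyte antigen CD45, was at most 0.436 CPM in any library. The part of Csf1r-expressing cells in the Podxl levels was not tested.

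**Figure D2:**
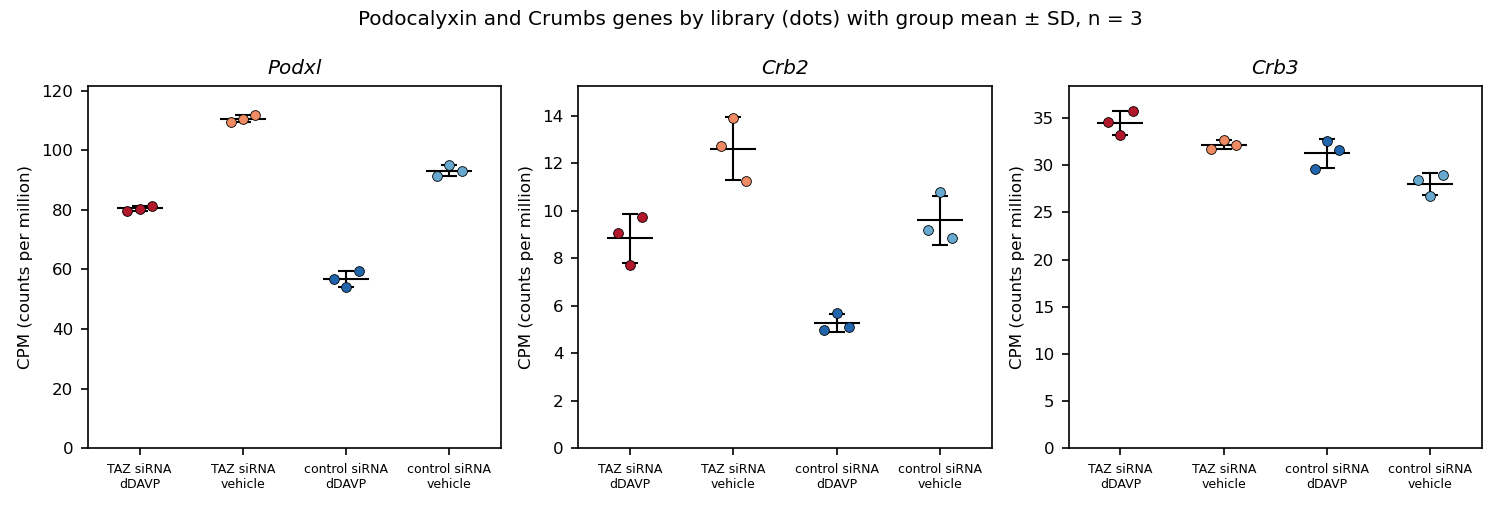
Normalised CPM (vertical axis from 0) of Podxl, Crb2 and Crb3 in each of the 12 libraries (dots), with the group mean ± SD (n = 3). The 4 groups of Podxl are separate, Crb2 has the same order with an overlap between TAZ siRNA with dDAVP and control siRNA with vehicle, and Crb3 spans a narrower range.

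Crb2, a large Crumbs protein with an extracellular domain of EGF-like and laminin G-like repeats that is needed in mouse gastrulation and in podocytes, was the least abundant of the 10 genes and had the largest changes. Crb2 (gene identifier 241324, chr2:37776225-37799103, mm10) measured 9.06, 7.71 and 9.75 CPM with TAZ siRNA and dDAVP and 12.7, 13.9 and 11.2 CPM with TAZ siRNA and vehicle. It measured 4.99, 5.71 and 5.10 CPM with control siRNA and dDAVP and 9.21, 10.8 and 8.84 CPM with control siRNA and vehicle. The dDAVP libraries lay below the vehicle libraries under each siRNA, and the TAZ siRNA libraries lay above the control siRNA libraries within each treatment. Between treatments, the levels in TAZ siRNA cells with dDAVP and in control siRNA cells with vehicle overlapped. With dDAVP, Crb2 fell by 0.51 ± 0.10 on the log2 scale in TAZ siRNA cells (adjusted p = 0.00252) and by 0.86 ± 0.11 in control siRNA cells (adjusted p = 1.6e-05). TAZ siRNA raised it by 0.75 ± 0.11 under dDAVP (adjusted p = 0.00025), which is 168% of the control siRNA mean, and by 0.40 ± 0.10 under vehicle (adjusted p = 0.026). The call under vehicle was lost without TAZ siRNA vehicle replicate 2 (adjusted p = 0.165) or without either replicate 1 (0.117) or replicate 3 (0.113) of control siRNA with vehicle. Each library held 280 to 854 Crb2 counts. The last 113 bases of the gene lie opposite Dennd1a on the other strand in GENCODE M21, and the sources used here do not say whether the counting used strand.

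The Crb2 promoter is shown because Crb2 had the largest change with dDAVP, a hormone analogue that raises cAMP. Its 300 bases run from 250 bases before to 50 after the start (RefSeq, GRCm38.p6, chr2:37775999-37776298, plus strand), with the short form of the cAMP response element in capitals.
Crb2 promoter: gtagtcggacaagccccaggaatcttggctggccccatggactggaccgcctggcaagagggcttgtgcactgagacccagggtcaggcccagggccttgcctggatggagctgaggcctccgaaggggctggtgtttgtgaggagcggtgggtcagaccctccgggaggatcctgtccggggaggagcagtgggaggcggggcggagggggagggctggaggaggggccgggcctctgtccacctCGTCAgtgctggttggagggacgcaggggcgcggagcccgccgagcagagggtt
Both strands were searched for TGACGTCA, for its short form TGACG, which lies within it, and for GGAATG, a TEAD site. The Crb2 window held 1 short form, read as CGTCA on the plus strand, and neither of the other motifs. Over 32851 promoters of the same table, 20.8% held the short form, 1.79% the full element and 14.7% the TEAD site. Of the 10 genes 7 had a promoter in the table, in 14 windows. Podxl, Scrib and Llgl2 had none there and were not searched. The short form was in 5 of these windows, those of Crb2 and Pard6b, 2 of Patj and 1 of Pard3, the full element was in 0, and the TEAD site was in 2, the Prkci window and 1 Crb3 window. A match is a run of letters and not a shown binding site.

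Crb3, the short Crumbs protein of most epithelia and a binding partner of PALS1 and PAR6, moved much less than Crb2. Crb3 (gene identifier 224912, chr17:57062201-57065918, mm10) measured 34.6, 33.2 and 35.7 CPM with TAZ siRNA and dDAVP and 31.7, 32.7 and 32.2 CPM with TAZ siRNA and vehicle. It measured 29.6, 32.6 and 31.6 CPM with control siRNA and dDAVP and 28.4, 26.7 and 28.9 CPM with control siRNA and vehicle. The vehicle libraries with control siRNA were the lowest of the 12, and the middle 2 groups overlapped. Crb3 rose by 0.16 ± 0.05 on the log2 scale with dDAVP in control siRNA cells (adjusted p = 0.0379) and by 0.20 ± 0.05 with TAZ siRNA in vehicle-treated cells (adjusted p = 0.026). The first call was lost without control siRNA dDAVP replicate 2 (adjusted p = 0.19) or 3 (0.117) and without control siRNA vehicle replicate 1 (0.066) or 2 (0.159). The second was lost without TAZ siRNA vehicle replicate 2 (adjusted p = 0.129) or 3 (0.0856) and without control siRNA vehicle replicate 1 (0.0665) or 2 (0.102). Crb3 was 0.10 ± 0.05 with dDAVP in TAZ siRNA cells (adjusted p = 0.239) and 0.14 ± 0.05 with TAZ siRNA in dDAVP-treated cells (adjusted p = 0.0867), neither of them called. In GENCODE M21 the last 14 bases of the gene overlap Dennd1c on the other strand. The GENCODE gene also overlaps Slc25a23 on the other strand over 759 bases (chr17:57059105-57059863), which lie outside the deposited coordinates of Crb3.

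Patj, the scaffold of many PDZ domains that joins PALS1 to tight junction proteins (gene identifier 12695, chr4:98395560-98719603, mm10), was not called in any comparison. Its group means lay between 151 and 155 CPM. The 95% interval of its log2 fold change was -0.073 to 0.068 with dDAVP in TAZ siRNA cells and -0.11 to 0.034 in control siRNA cells. It was -0.035 to 0.11 for TAZ siRNA under dDAVP and -0.068 to 0.073 under vehicle.

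Of the PAR genes, Prkci was lower with dDAVP. Prkci, which encodes the atypical protein kinase C iota (gene identifier 18759, chr3:30995742-31052740, mm10), measured 339.9, 335 and 330.1 CPM with TAZ siRNA and dDAVP and 367, 372 and 362 CPM with TAZ siRNA and vehicle. It measured 332, 322 and 329 CPM with control siRNA and dDAVP and 371, 372 and 359 CPM with control siRNA and vehicle. Every dDAVP library lay below every vehicle library, while the siRNAs overlapped within each treatment. Prkci fell by 0.13 ± 0.03 on the log2 scale with dDAVP in TAZ siRNA cells (adjusted p = 0.00503) and by 0.17 ± 0.03 in control siRNA cells (adjusted p = 0.000402), and both calls held under the 14 alternatives tried for each. With TAZ siRNA it was 0.03 ± 0.03 under dDAVP and -0.003 ± 0.03 under vehicle (adjusted p = 0.54 and 0.9753).

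Pard6b, which binds Cdc42 and the atypical kinase (gene identifier 58220, chr2:168081004-168101203, mm10), averaged 150.3 ± 2.3 CPM with TAZ siRNA and dDAVP and 153 ± 1.8 CPM with TAZ siRNA and vehicle, 149 ± 1.2 CPM with control siRNA and dDAVP and 156 ± 1.6 CPM with control siRNA and vehicle (SD, n = 3). It was not called, and its lowest adjusted p was 0.102, for dDAVP in control siRNA cells (log2 fold change -0.07 ± 0.03). Pard3, the scaffold that brings the PAR complex to tight junctions (gene identifier 93742, chr8:127063381-127612286, mm10), averaged 172 ± 6.5 and 172 ± 2.0 CPM in TAZ siRNA cells with dDAVP and vehicle, against 184 ± 2.0 and 185 ± 5.5 CPM in control siRNA cells with dDAVP and vehicle. With TAZ siRNA its log2 fold change was -0.10 ± 0.03 under dDAVP (adjusted p = 0.0751) and -0.10 ± 0.03 under vehicle (adjusted p = 0.0832). Neither was called by edgeR, while DESeq2 called both (adjusted p = 0.0341 and 0.0366). Without TAZ siRNA dDAVP replicate 2 edgeR called the change under dDAVP (adjusted p = 0.0291).

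**Figure D3:**
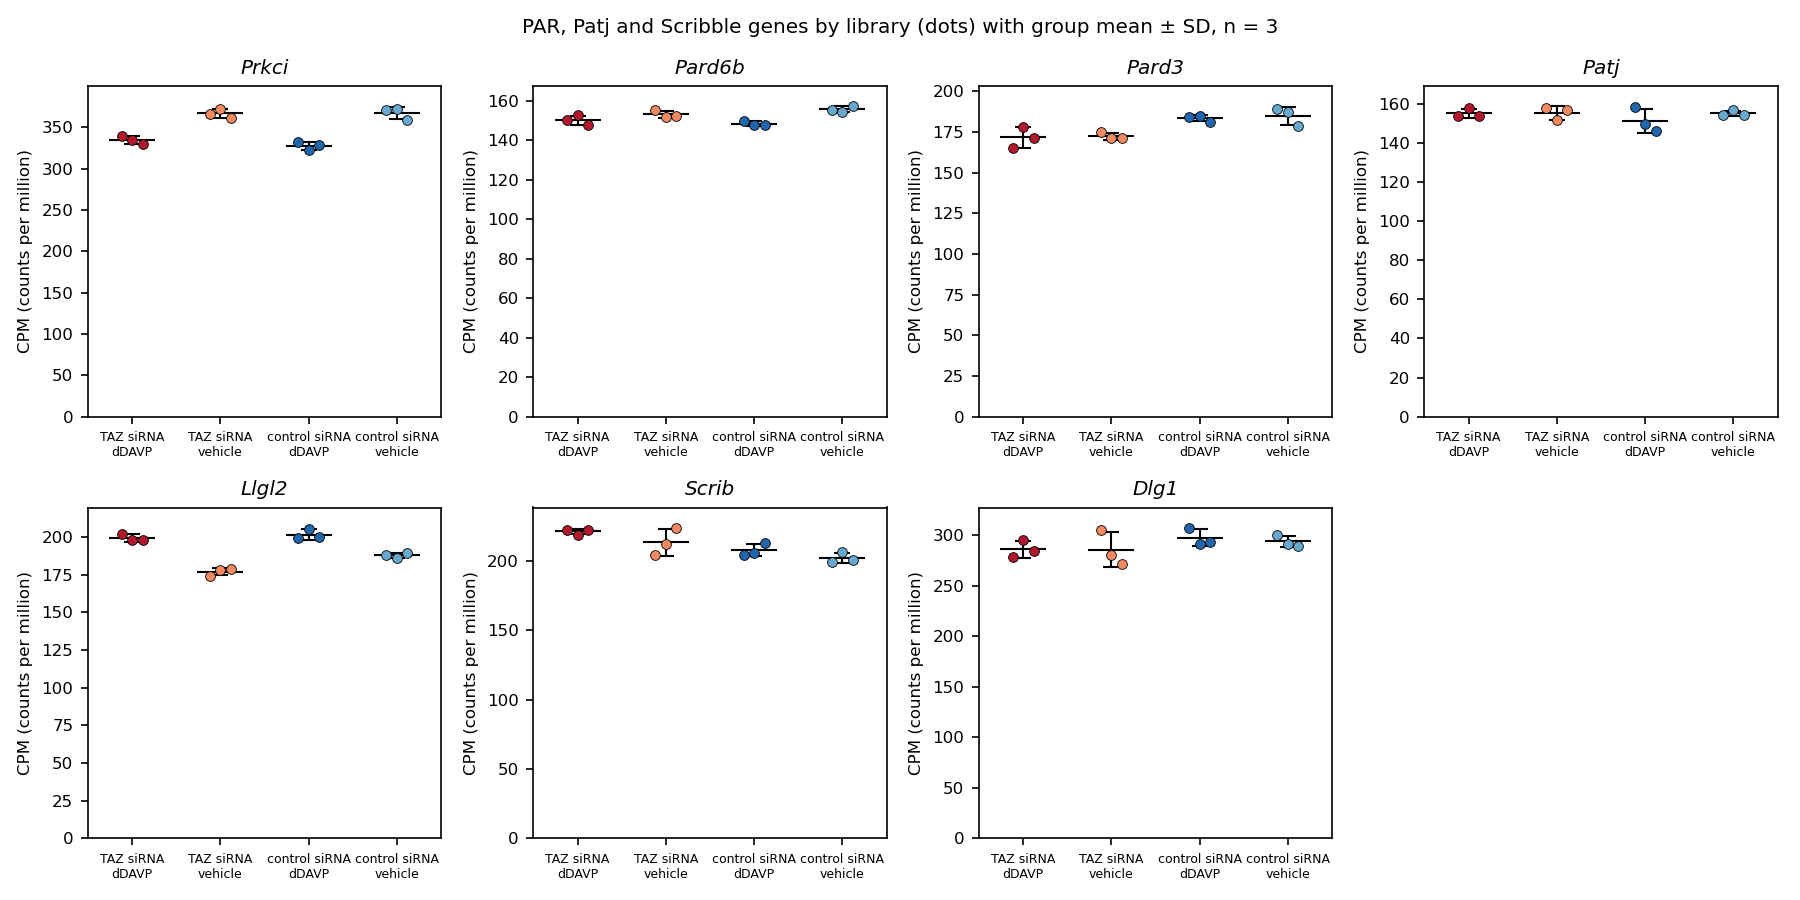
Normalised CPM (vertical axes from 0) of the 7 other genes in each library (dots), with the group mean ± SD (n = 3). Prkci is lower and Llgl2 higher in the dDAVP groups of both siRNAs, and groups of the remaining genes overlap in part.

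Of the Scribble genes, Llgl2 was higher with dDAVP. Llgl2, a Lgl protein that the atypical kinase phosphorylates (gene identifier 217325, chr11:115824029-115855780, mm10), measured 202, 198 and 198 CPM with TAZ siRNA and dDAVP and 174, 178 and 178 CPM with TAZ siRNA and vehicle. It measured 199, 206 and 199.98 CPM with control siRNA and dDAVP and 188, 186 and 189 CPM with control siRNA and vehicle. The dDAVP libraries of both siRNAs lay above all vehicle libraries, and the vehicle libraries with TAZ siRNA lay below those with control siRNA. With dDAVP, Llgl2 rose by 0.17 ± 0.03 on the log2 scale in TAZ siRNA cells (adjusted p = 0.000448) and by 0.10 ± 0.03 in control siRNA cells (adjusted p = 0.0163). The second call was lost without control siRNA dDAVP replicate 2 (adjusted p = 0.101) and without control siRNA vehicle replicate 2 (0.0616). Under vehicle, TAZ siRNA gave -0.09 ± 0.03, which edgeR did not call (adjusted p = 0.0809) and DESeq2 did (adjusted p = 0.0174).

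Scrib and Dlg1, the scaffold proteins of the lateral membrane, were not called in any comparison. In mm10 Scrib (gene identifier 105782) lies at chr15:76047162-76069784 and Dlg1 (gene identifier 13383) at chr16:31663443-31873356. Scrib averaged 221 ± 2.1 CPM with TAZ siRNA and dDAVP and 214 ± 9.7 CPM with TAZ siRNA and vehicle, 208 ± 4.4 CPM with control siRNA and dDAVP and 202 ± 3.7 CPM with control siRNA and vehicle (SD, n = 3). With TAZ siRNA its log2 fold change was 0.09 ± 0.03 under dDAVP (adjusted p = 0.0997) and 0.08 ± 0.03 under vehicle (adjusted p = 0.197). Dlg1 averaged 286 ± 8.3 CPM with TAZ siRNA and dDAVP and 285 ± 17 CPM with TAZ siRNA and vehicle, 297 ± 8.3 CPM with control siRNA and dDAVP and 294 ± 5.8 CPM with control siRNA and vehicle. The 95% interval of Dlg1 that reached farthest from 0 over the 4 comparisons was -0.14 to 0.027 on the log2 scale, for TAZ siRNA under dDAVP.

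Levels of different genes were compared in the deposited TPM, which accounts for transcript length. In all 4 groups Prkci had the highest mean level of the 10 genes, followed by Dlg1, Llgl2, Pard6b and Scrib, and Crb2 had the lowest, below Podxl and Patj. Prkci averaged 199.97 ± 3.2 TPM with TAZ siRNA and dDAVP and 224 ± 4.3 TPM with TAZ siRNA and vehicle, 192 ± 5.8 TPM with control siRNA and dDAVP and 223 ± 7.0 TPM with control siRNA and vehicle (SD, n = 3). Podxl averaged 40.2 ± 0.6 and 56.4 ± 0.1 TPM in TAZ siRNA cells with dDAVP and vehicle, and 27.8 ± 1.5 and 47.3 ± 1.4 TPM in control siRNA cells with dDAVP and vehicle. Crb2 averaged 3.70 ± 0.39 and 5.42 ± 0.59 TPM in TAZ siRNA cells with dDAVP and vehicle, and 2.16 ± 0.12 and 4.09 ± 0.49 TPM in control siRNA cells with dDAVP and vehicle. Crb3 was the more abundant Crumbs gene in every library. The ratio of Crb3 TPM to Crb2 TPM was 23.0 ± 2.0 with TAZ siRNA and dDAVP and 15.0 ± 1.5 with TAZ siRNA and vehicle, 34.8 ± 1.3 with control siRNA and dDAVP and 17.2 ± 2.6 with control siRNA and vehicle (SD, n = 3). Within a group neighbours in the order did not overlap, except Crb3 at 83.0 to 87.4 TPM and Pard3 at 76.9 to 85.4 TPM in TAZ siRNA cells with dDAVP, and these 2 genes changed places between that group and the others.

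Another 47 genes of the same pathways were listed, and 39 passed the filter. With dDAVP in TAZ siRNA cells 4 of these rose and 1 fell, and in control siRNA cells 7 rose and 6 fell, against the shares of 10.8% and 19.2% of all tested genes called in those comparisons. With TAZ siRNA 5 rose and 3 fell under dDAVP, and 2 rose and 1 fell under vehicle, against 10.7% and 6.30%. Counted with the 10 genes, 9, 18, 10 and 6 of 49 tested list genes were called in the 4 comparisons. The difference of the dDAVP responses was called for none of the 49 by edgeR (0.0314% of all tested genes). DESeq2 called it for 1 of the 49 and for 87 of all 15932 tested genes. In edgeR 4 of the 49 had an unadjusted p under 0.05, beside 1295 of all tested genes.

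**Figure D4:**
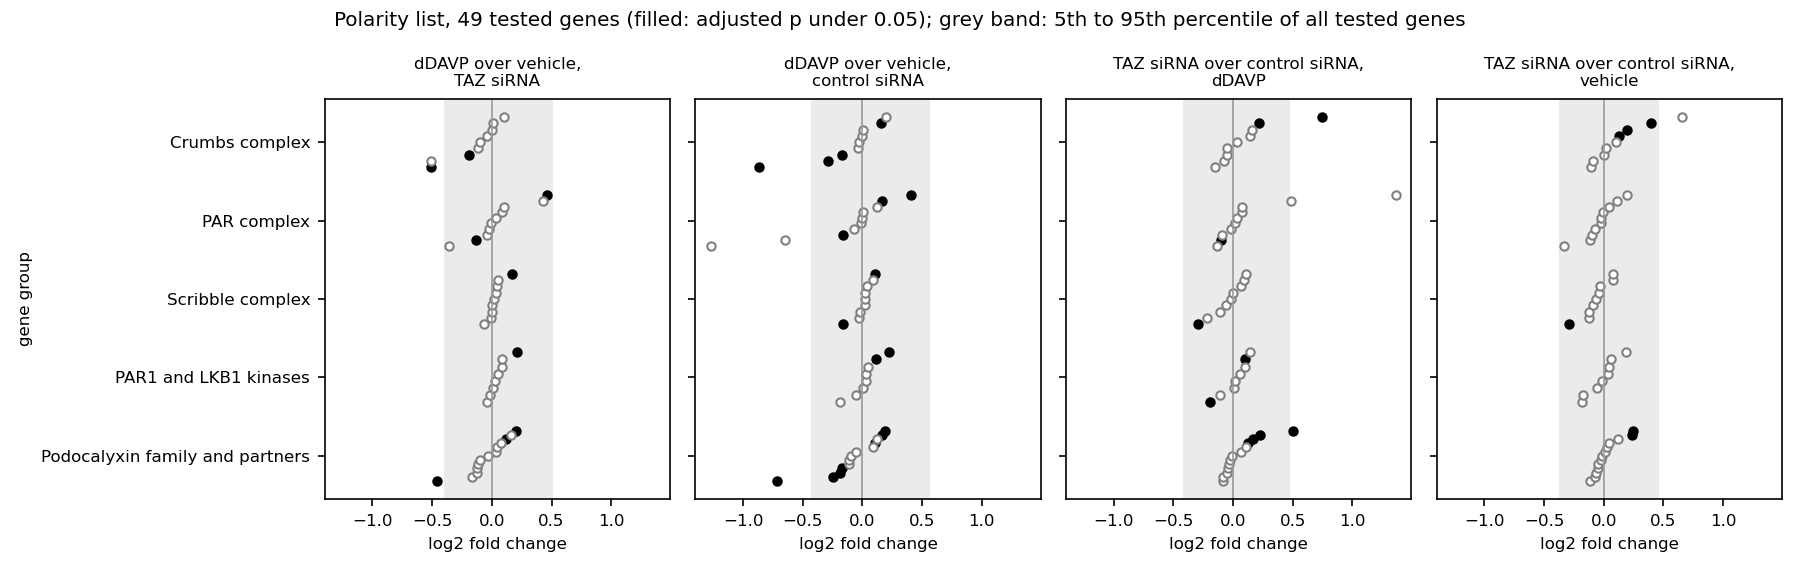
Log2 fold change (horizontal axis) of the 49 tested list genes by complex in the 4 comparisons, with filled points for an adjusted p under 0.05 in edgeR and a grey band from the 5th to the 95th percentile of all 15932 tested genes. Podxl and Crb2 are the filled points outside the band with dDAVP, and most other genes lie within it.

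Among Crumbs and PAR partners, Epb41l5 was lower with dDAVP and higher with TAZ siRNA, and Tiam1 was higher with dDAVP. Epb41l5, a FERM-domain protein that binds Crumbs proteins, averaged 194 ± 4.0 CPM with TAZ siRNA and dDAVP and 222 ± 4.5 CPM with TAZ siRNA and vehicle, 166 ± 4.5 CPM with control siRNA and dDAVP and 203 ± 3.0 CPM with control siRNA and vehicle (SD, n = 3). With dDAVP it fell by 0.20 ± 0.03 on the log2 scale in TAZ siRNA cells (adjusted p = 0.000347) and by 0.29 ± 0.03 in control siRNA cells (adjusted p = 3.24e-06). TAZ siRNA raised it by 0.22 ± 0.03 under dDAVP (adjusted p = 0.00022) and by 0.13 ± 0.03 under vehicle (adjusted p = 0.0215). The call under vehicle was lost without TAZ siRNA vehicle replicate 1 (adjusted p = 0.0693) or 2 (0.0973) and without control siRNA vehicle replicate 1 (0.0621), 2 (0.0804) or 3 (0.054), and with only the compared groups fitted (0.0503). Tiam1, an exchange factor for Rac that binds PAR3, averaged 299 ± 16 CPM with TAZ siRNA and dDAVP and 217 ± 6.4 CPM with TAZ siRNA and vehicle, 303 ± 11 CPM with control siRNA and dDAVP and 228 ± 2.5 CPM with control siRNA and vehicle. It rose by 0.46 ± 0.04 with dDAVP in TAZ siRNA cells (adjusted p = 2.39e-07) and by 0.41 ± 0.04 in control siRNA cells (adjusted p = 6.32e-07), under all 14 alternatives for each.

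In the Scribble group, Lrrc1, a protein related to Scrib in its leucine-rich repeats, was lower with TAZ siRNA. It averaged 45.5 ± 1.7 and 44.8 ± 2.2 CPM in TAZ siRNA cells with dDAVP and vehicle, against 55.6 ± 1.5 and 54.8 ± 0.9 CPM in control siRNA cells with dDAVP and vehicle. It fell by 0.29 ± 0.05 on the log2 scale under both treatments (adjusted p = 0.000403 under dDAVP and 0.000975 under vehicle). Cab39l, a scaffold of the LKB1 kinase complex, rose by 0.21 ± 0.06 with dDAVP in TAZ siRNA cells and by 0.22 ± 0.06 in control siRNA cells (adjusted p = 0.0191 and 0.00826) and fell by 0.20 ± 0.06 with TAZ siRNA under dDAVP (adjusted p = 0.029). The first of these calls was lost without TAZ siRNA dDAVP replicate 1 (adjusted p = 0.053) or 2 (0.0745) and without TAZ siRNA vehicle replicate 2 (0.135) or 3 (0.0937), and with only the compared groups fitted (0.0638). The second was lost without control siRNA vehicle replicate 2 (0.0508). The third was lost without TAZ siRNA dDAVP replicate 1 (0.0863) or 3 (0.0906) and without control siRNA dDAVP replicate 1 (0.093), 2 (0.0552) or 3 (0.0774).

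Among the anchors that tie podocalyxin to the cytoskeleton, Slc9a3r1 and Ezr rose with dDAVP and Slc9a3r2 rose with TAZ siRNA. Slc9a3r1, which encodes NHERF1, averaged 166 ± 8.1 CPM with TAZ siRNA and dDAVP and 145 ± 1.5 CPM with TAZ siRNA and vehicle, and rose by 0.20 ± 0.04 on the log2 scale (adjusted p = 0.00236). In control siRNA cells it rose by 0.17 ± 0.04 (adjusted p = 0.00678), a call lost without control siRNA dDAVP replicate 2 (0.0525). Ezr, which encodes the actin linker ezrin, averaged 510.3 ± 13 CPM with control siRNA and dDAVP and 449 ± 12 CPM with control siRNA and vehicle, and rose by 0.19 ± 0.03 (adjusted p = 0.000393). In TAZ siRNA cells it rose by 0.12 ± 0.03 (adjusted p = 0.0232). That call was lost without TAZ siRNA dDAVP replicate 1 (0.111) or 2 (0.0897), without TAZ siRNA vehicle replicate 2 (0.136) or 3 (0.0788), with no low count filter (0.0773) and with only the compared groups fitted (0.0629). The difference of the dDAVP responses between siRNAs was not called for Slc9a3r1 or Ezr under any of the 19 alternatives tried for each. Slc9a3r2, which encodes NHERF2, rose with TAZ siRNA by 0.22 ± 0.06 under dDAVP (adjusted p = 0.0226) and by 0.24 ± 0.06 under vehicle (adjusted p = 0.0228). The first of the Slc9a3r2 calls was lost without TAZ siRNA dDAVP replicate 1 (adjusted p = 0.138) or 3 (0.0531) and without control siRNA dDAVP replicate 1 (0.1082) or 2 (0.1083). The second was lost without TAZ siRNA vehicle replicate 2 (0.105) or 3 (0.0965) and without control siRNA vehicle replicate 1 (0.113) or 3 (0.0595).

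The called genes of vesicle traffic on the list had small changes. Rab27a and Rab27b, small GTPases of vesicle docking, fell by 0.19 ± 0.06 and by 0.25 ± 0.07 on the log2 scale with dDAVP in control siRNA cells (adjusted p = 0.0454 and 0.0234). Leaving out control siRNA dDAVP replicate 1 or 3 ended the Rab27a call (adjusted p = 0.187 and 0.0523), and so did leaving out control siRNA vehicle replicate 1 (0.109), 2 (0.060) or 3 (0.138). It was also lost with a replicate block (0.0689), with upper quartile factors (0.0502) and with no low count filter (0.0707), so that 6 of 14 alternatives called it. Leaving out control siRNA dDAVP replicate 2 or 3 ended the Rab27b call (adjusted p = 0.0906 and 0.0761), and so did leaving out control siRNA vehicle replicate 1 (0.0752) or 2 (0.0609). Rab11fip5, an effector of Rab11 on recycling endosomes, fell by 0.17 ± 0.04 with dDAVP in control siRNA cells (adjusted p = 0.00601), and all 14 alternatives called it. Under dDAVP, TAZ siRNA raised Rab11fip5 by 0.17 ± 0.04 (adjusted p = 0.0124), and Rab3ip, the exchange factor Rabin8 that activates Rab8, by 0.12 ± 0.03 (adjusted p = 0.0123). This Rab11fip5 call was lost without TAZ siRNA dDAVP replicate 1 (adjusted p = 0.0705) and without control siRNA dDAVP replicate 1 (0.0569) or 3 (0.054). The Rab3ip call was lost without TAZ siRNA dDAVP replicate 1 (0.0757) and without control siRNA dDAVP replicate 1 (0.054) or 2 (0.055).

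The likeness of each gene's profile to that of Podxl was described by Pearson's r of log2 CPM over the 12 libraries, which form 4 groups and share their library scaling. Crb2 had r = 0.954 with Podxl, rank 65 of 12573 genes with a mean of at least 1 CPM. Prkci followed at 0.865, Pard6b at 0.701 and Patj at 0.426, while Llgl2 had -0.881. Scrib (0.10), Crb3 (-0.099), Dlg1 (-0.366) and Pard3 (-0.392) lay between. The genes most like Podxl were Sh3tc2 (r = 0.992), Kifc3 (0.987), Agrn (0.986), Pxdn (0.986) and Arhgef40 (0.985). Those most opposite were Cpt1a (r = -0.994), Cfb (-0.989) and Gm41756 (-0.983).

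Transcript shares could be read for some of the genes and not for others. Podxl and Pard6b had 1 transcript model each, and NM_001163566 held 98.9% to 100% of the Crb2 transcript counts in every library. For Crb3, NM_177638 held 68.4 ± 4.4% with TAZ siRNA and dDAVP and 69.8 ± 0.4% with TAZ siRNA and vehicle, 69.6 ± 2.0% with control siRNA and dDAVP and 71.4 ± 5.3% with control siRNA and vehicle (SD, n = 3), and NM_001347408 held most of the rest. The group means of NM_008857 of Prkci lay between 83.2% and 87.5%. Shares of genes with many models ran widely among libraries of 1 group. The share of NM_172696 in Patj was 7.53%, 60.5% and 84.4% in the control siRNA libraries with vehicle, and NM_145438 of Llgl2 held 88.7%, 40.7% and 45.1% in the TAZ siRNA libraries with dDAVP. For Patj and Llgl2 these ranges exceed the differences between group means, and no comparison of shares was made.

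**Figure D5:**
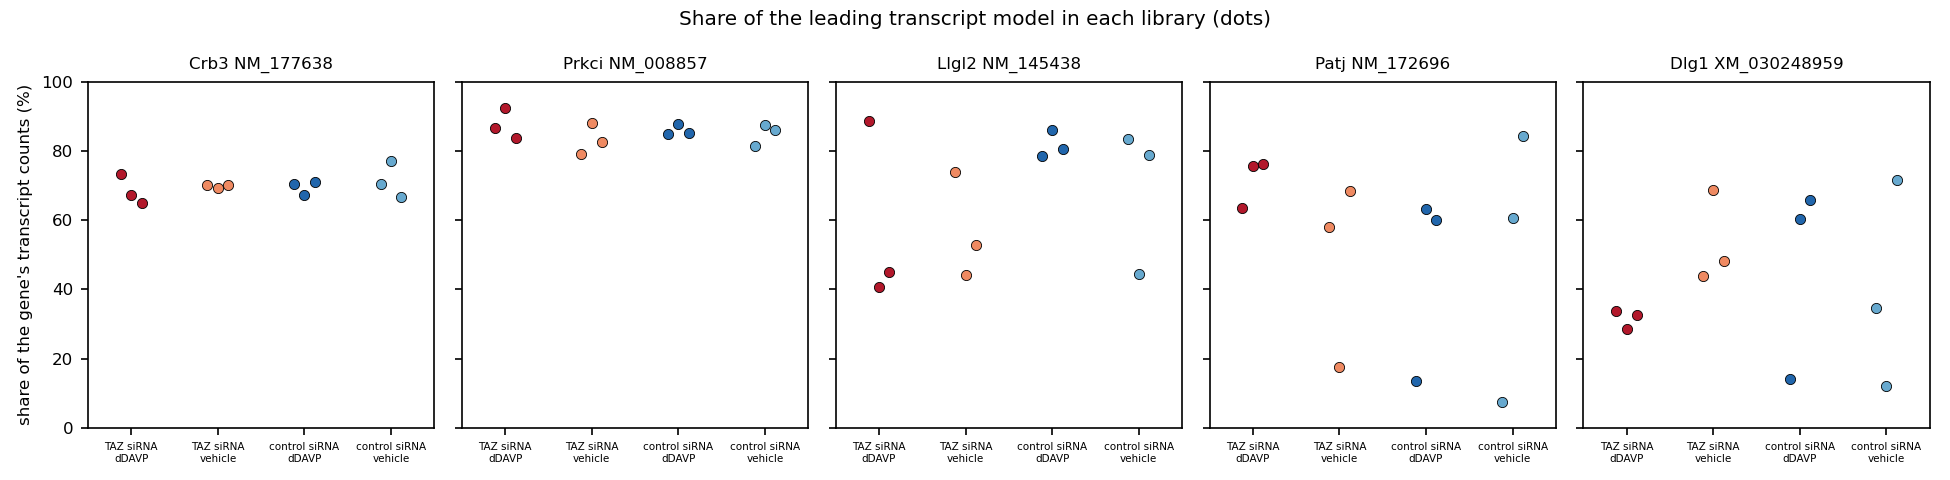
Share of the leading transcript model in the transcript counts of its gene (vertical axis, percent) in each of the 12 libraries (dots), for Crb3, Prkci, Llgl2, Patj and Dlg1. The dots of Crb3 and Prkci lie close together in all groups, and those of Llgl2, Patj and Dlg1 are scattered within groups.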

How the data were processed

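Per the labels' protocols, libraries were made with a TruSeq stranded mRNA kit, beside which another TruSeq RNA kit is named. Per the submitters' processing notes, Bowtie 0.12.2 and the builds mm8 and mm10 were used, with no role stated. The sources used here do not name a counting tool. Per the file headers, the deposited tables hold a TPM value and an estimated count for each gene, and estimated counts by transcript, all counts being whole numbers. Transcript FPKM, also from the authors, served to check the counts. For 157342 transcript values with counts of 2 to 20, the count implied by the FPKM was not whole by over 0.05 in 85.6%, so counts are rounded estimates. How reads of similar genes or transcripts were divided is not given. A further 24 per-sample columns were left unused.

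Estimated counts were tested in R 4.3.3 with edgeR 4.0.16 (TMM, robust quasi-likelihood F test, 1 mean per group, all 12 libraries, filterByExpr with a minimum count of 10). Of 45777 genes, 24656 had a count and 15932 were tested in 5 contrasts, namely dDAVP within each siRNA, TAZ siRNA within each treatment, and how the dDAVP responses differed between siRNAs. The SE of a log2 fold change was derived from its F statistic. CPM uses as library size the count total of the tested genes times the TMM factor (0.988 to 1.01). The biological coefficient of variation was 5.11%. Replicate libraries differed by more than sampling noise (chi-square of 4.25 to 13.5 per degree of freedom), so each was kept. Floors of 3 counts use the library total without TMM factors and cover counting error only. Alternatives used limma 3.58.1, DESeq2 1.42.0, other scalings and filters, and leaving out each library. The design had assumed read counts; the estimates were already whole and the count test was kept.

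Named are all 10 genes, Wwtr1, Aqp2, marker genes, and in each contrast up to 8 called list genes of largest change. Beyond that limit Rab11fip5, Slc9a3r1 and Ezr with dDAVP were added, after their values were seen. Also named are the 5 genes most like and 3 most opposite to Podxl by r. Of transcripts with a share of at least 10% in a group only some are named, and those of Pard3, Scrib and Dlg1 are not named in the text. The genes and lists were chosen with earlier results of these data known. Promoters came from RefSeq (GRCm38.p6), coding ends and overlaps from GENCODE M21, and coordinates are those of the deposited transcript table.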

Additional observations from a re-analysis of the deposited data

How the results depend on the processing

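Of 750 values of the 10 genes under the alternatives, 694 kept their direction and call, 13 lost a call, 5 gained one and 38 changed sign, all of them uncalled and near 0. For TAZ siRNA under vehicle, DESeq2 called 5 of the 10 genes and 10 list genes, beside 1427 of all 15932 tested genes. For the difference of the dDAVP responses it called 87 of all tested genes, 1 of the 10 and 1 list gene. For that difference 12 genes were called with no filter and 14 with a minimum count of 50. The cause was not tested. Leaving out 1 library, calls over all genes ran from 1118 to 1752 for dDAVP with TAZ siRNA and 2103 to 2685 for dDAVP with control siRNA. They ran from 1049 to 1625 for TAZ siRNA under dDAVP, 410 to 1435 for TAZ siRNA under vehicle and 3 to 16 for the difference. Calls among the 10 genes ran from 3 to 5 for dDAVP with control siRNA and from 1 to 3 for TAZ siRNA under vehicle. Calls among list genes ran from 10 to 16 for dDAVP with control siRNA, 4 to 12 for TAZ siRNA under dDAVP and 2 to 9 for TAZ siRNA under vehicle.

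Log2 fold changes changed sign as follows. With no filter they were -0.016 for Dlg1 (dDAVP, TAZ siRNA), 0.0039 for Prkci (TAZ siRNA, vehicle), and -0.017 for Pard3 and -0.0088 for Scrib (difference). With upper quartile factors they were -0.0020 for Dlg1 (dDAVP, TAZ siRNA), 0.017 for Prkci (TAZ siRNA, vehicle) and -0.0061 for Pard3 (difference). Patj (TAZ siRNA, vehicle) was -0.00046 with RLE factors and -0.00040 with DESeq2, Pard3 (difference) was -0.0036 with a minimum count of 50, and Dlg1 (dDAVP, TAZ siRNA) was -0.0019 with only the compared groups. Leaving out 1 library gave ranges for dDAVP with TAZ siRNA of -0.040 to 0.049 (Dlg1), -0.038 to 0.016 (Pard3) and -0.026 to 0.0068 (Patj), and for dDAVP with control siRNA of -0.012 to 0.034 (Dlg1) and -0.036 to 0.0045 (Pard3). For TAZ siRNA under vehicle they were -0.017 to 0.016 (Patj) and -0.019 to 0.0057 (Prkci), and for the difference -0.053 to 0.036 (Dlg1), -0.023 to 0.032 (Pard3) and -0.016 to 0.046 (Scrib).

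Deviations from the group mean correlated at -0.043 to 0.080 over 18 pairs of libraries with the same replicate number, none over 0.1. Over 36 pairs with other numbers the correlations were -0.058 to 0.065. These ranges overlap and cannot decide whether the numbers pair the libraries. With a replicate block, 4, 5, 2, 3 and 0 of the 10 genes and 10, 16, 14, 7 and 0 of the list genes were called in the 5 contrasts. Over all 15932 tested genes, the same fit called 1663, 2983, 1690, 968 and 6. Depth limits Crb2 most among the 10 genes, at 280 to 854 counts per library. The difference of the dDAVP responses of Slc9a3r1 was not called and ranged from -0.0017 to 0.077 on the log2 scale when 1 replicate was left out, its sign changing without TAZ siRNA dDAVP replicate 1.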
